A study of Homo sapiens with 4 samples.

Results

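Interferon-stimulated genes are the genes that a cell switches on after interferon has bound its receptor, and 45 of them were followed here, chosen by symbol from the 26364 symbols of the count table. Every one of the 45 was listed in the table. RNA bound to ribosomes was sequenced from HCT116 cells, an established human colorectal carcinoma line of epithelial origin, in 4 libraries. The wild type HCT116 gradient gave a heavy library, of mRNAs carrying 10 or more ribosomes, and a light library, of mRNAs carrying 9 or fewer, and the gradient of HCT116 cells labelled Dicer1 knockout gave the same pair. No interferon or other treatment is named for any library, and nothing says whether the knockout cells are 1 clone. Each group had 1 library, so the genotypes could not be compared by a test and all genotype ratios are values of these libraries.

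Type I and type III interferons signal through their receptors and the kinases JAK1 and TYK2 to STAT2, which joins IRF9 in the complex ISGF3. ISGF3 binds the interferon-stimulated response element in promoters, whose core is a pair of GAAA blocks. The proteins made in this way sense viral RNA, degrade or modify RNA, block virus entry and release, or attach the ubiquitin-like protein ISG15 to other proteins, and a low level of many of them is present in cells that have met no virus. DICER1 cuts double-stranded RNA, including microRNA precursors, and some of the proteins made from these genes sense or modify such RNA. Whether any link through such RNA enters the genotype differences was not tested. A polysome library measures ribosome-bound mRNA, so less mRNA in the cell and fewer ribosomes per mRNA cannot be told apart within 1 fraction.

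DICER1 itself had 500 counts in the heavy and 547 in the light wild type library, and 925 and 889 in the heavy and light libraries labelled knockout. It was therefore 1.93-fold higher in the heavy and 1.95-fold higher in the light libraries labelled knockout, which does not show the labelled loss at the level of mRNA. Whether the deleted stretch lies inside the counted exons is not given, and whether the labels were exchanged was not tested; an exchange would turn each genotype direction and each shift given here. The genotype is therefore written as labelled throughout. Library totals ran from 17457116 to 20933675 counts, and a count of 0 allows up to 0.136 to 0.166 CPM (counts scaled to the library size, with factors from the trimmed mean of M values, TMM) in a library. Of 8 markers of colon epithelium, 6 had 50 or more counts in every library, while VIL1 had none. Of the blood cell markers only CD68 passed 50 counts in every library, and PTPRC, CD3E, MS4A1, IL3RA and CLEC4C were at 0 throughout. Summed counts of the 10 blood markers, nearly all CD68, were 541 and 308 in the heavy and light wild type libraries and 283 and 201 in those labelled knockout. Those of 6 fibroblast markers, nearly all COL1A1 with DCN and LUM at 0, ran the other way, from 480 and 218 to 924 and 307. The part of either in the results was not tested.

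Of the members that passed the count minimum given below, 9 were at least 2-fold lower in the heavy library labelled knockout. Promoter stretches are shown first for some of these (BST2, IFI27, IFITM1, IFI6 and ISG15). Then come some members that were not as much lower (IFITM3, IFIT5 and LGALS3BP), because both kinds carry the letters of the response element. Of the 9, ISG20 held a match that is not shown, IRF9 and IRF1 held none, and OASL had no window. They come from RefSeq windows (GRCh38.p14) of 250 bases before to 50 bases after a start site, read 5′ to 3′ on the gene's strand. Capitals mark each match to GAAANNGAAA or to its reverse complement TTTCNNTTTC, and overlapping matches run together.
BST2, chr19:17405730-17405775, minus strand: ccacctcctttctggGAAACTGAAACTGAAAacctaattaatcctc
IFI27, chr14:94110613-94110665, plus strand: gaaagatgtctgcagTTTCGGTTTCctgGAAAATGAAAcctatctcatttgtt
IFITM1, chr11:313985-314024, plus strand: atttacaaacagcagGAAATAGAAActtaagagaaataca
IFI6, chr1:27672261-27672363, minus strand: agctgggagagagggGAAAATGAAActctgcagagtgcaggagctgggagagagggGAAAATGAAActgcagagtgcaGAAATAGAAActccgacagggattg
ISG15, chr1:1013369-1013414, plus strand: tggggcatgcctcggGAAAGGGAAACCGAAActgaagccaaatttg
IFITM3, chr11:320871-320927, minus strand: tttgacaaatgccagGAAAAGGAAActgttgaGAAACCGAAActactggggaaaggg
IFIT5, chr10:89414508-89414567, plus strand: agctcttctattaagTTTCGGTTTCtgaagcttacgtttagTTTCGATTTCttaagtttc
LGALS3BP, chr17:78979957-78979996, minus strand: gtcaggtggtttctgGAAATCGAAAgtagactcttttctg

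A match on either strand was found in 24 of the 38 members with a window, or 63.2%, and in 1195 of all 27305 RefSeq genes with one, or 4.38%. The members are known targets of interferon, so this share describes the list. Of the 8 members with a window that were at least 2-fold lower in either fraction of the libraries labelled knockout, 6 held a match; IRF9 and IRF1 did not. Among the other members that passed the count minimum given below, 14 of 22 held one, so the letters were present on both sides of that division. IFITM1 and IFIT5 each have a further match that crosses the start site and is not shown. IRF7, USP18, IFITM2, IFIT2, OAS2, OASL and TRIM22 had no window.

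**Figure D1:**
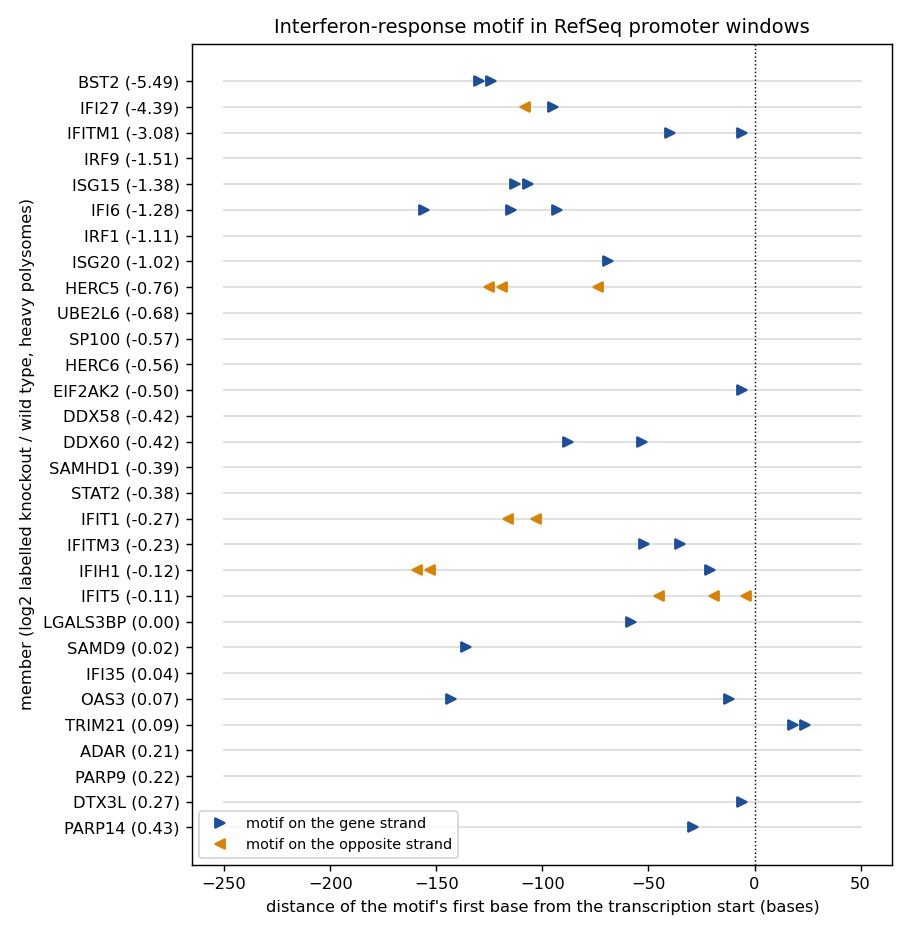
Positions of the response element core for the 30 members with a promoter window that passed the count minimum, 1 row each, ordered by the log2 genotype ratio in heavy polysomes given in brackets; the horizontal axis is the distance of the first base of a match from the start site, in bases, and marker colour gives the strand. Matches stand at the top of the order (BST2, IFI27) and at its foot (PARP14); only the first listed window of a gene is drawn, so PARP9, whose match lies in another window, has an empty row.

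The levels of the members spanned the range from silent to abundant. Per kilobase of the canonical transcript, IFITM3 was the highest in wild type heavy polysomes, at 949 CPM per kb, followed by LGALS3BP at 491, ISG15 at 472 and IFITM2 at 137, against a median of 7.15 over the 45. At the other end OAS2 had 0 counts in both wild type libraries and 2 in each library labelled knockout, XAF1 had a single count in the light wild type library, IFI44L had 2 and 3 in wild type and none in the labelled knockout, and SAMD9L had at most 6. In these libraries OAS2, a synthase of the RNA-degrading 2-5A pathway, thus lay near the limit of detection while its neighbour OAS3 did not.

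Summed over all 45 members, the level was 3501 CPM in heavy and 2287 CPM in light wild type polysomes, against 2888 and 2670 CPM in the libraries labelled knockout. LGALS3BP and IFITM3 made up much of these sums. Without these 2, a set chosen after the values were seen, the sums were 1839 and 1273 CPM in wild type and 1311 and 1145 CPM in the labelled knockout.

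**Figure D2:**
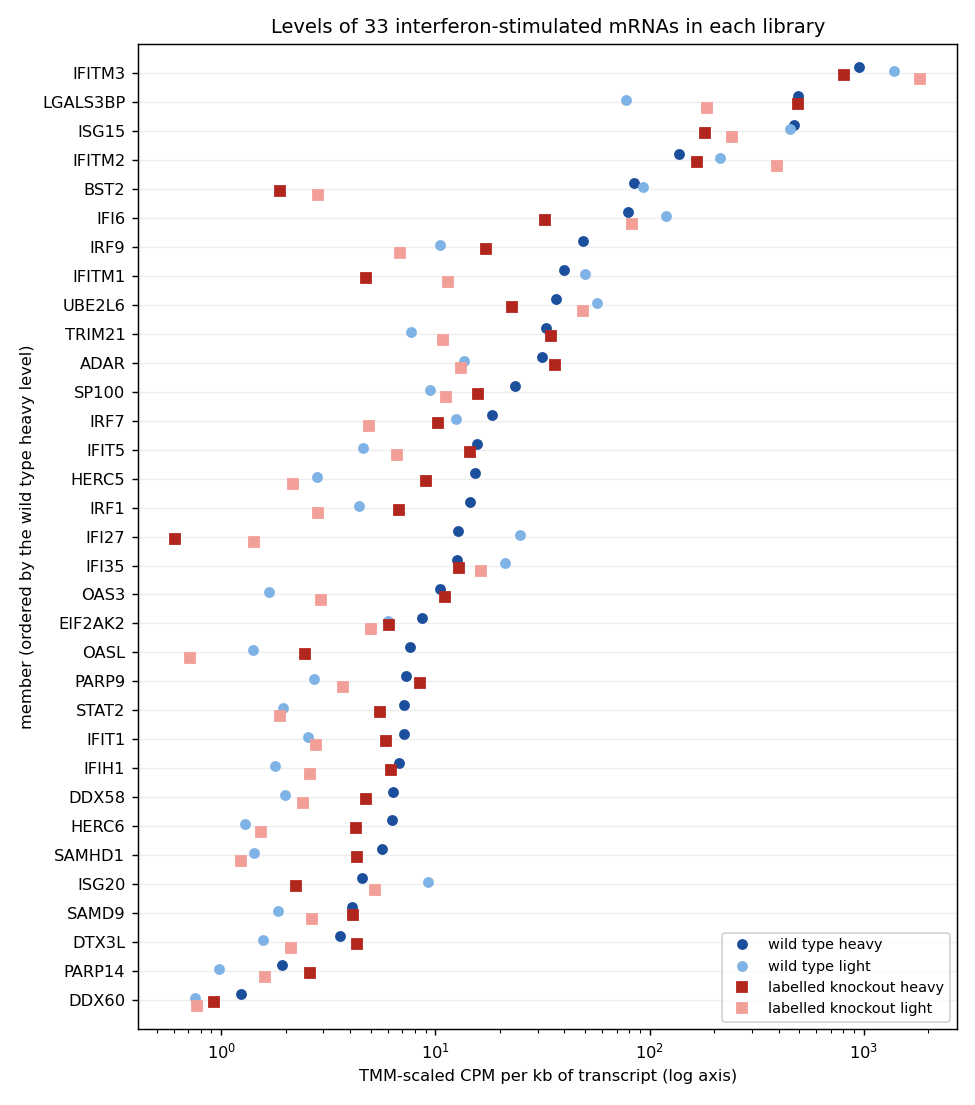
Level of the 33 members over the count minimum described in the next paragraph, in TMM-scaled CPM per kb of canonical transcript on a log axis, with 1 point per library and members ordered by the wild type heavy level. BST2, IFI27 and IFITM1 show a wide gap between the wild type circles and the squares labelled knockout.

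The first comparison was between genotypes within each polysome fraction. A member entered it with 100 or more counts in the higher library of both pairs, which 33 of the 45 had, and it counted as different at 2-fold or more in the same direction in both fractions. BST2, IFI27 and IFITM1 were lower in both fractions of the libraries labelled knockout. That is 3 of 33, where 1.21% of the 10418 genes over the same minimum were as much lower in both. No member over the minimum was at least 2-fold higher in both fractions, where 1.20% of genes were. The members were chosen with earlier results of these data known. Their counts beside the shares of all genes therefore describe this list and are not an independent test of it. All 3 lower members encode small proteins of membranes, and in the heavy pair all 3, and ISG20 besides, passed the minimum only through their wild type count; in the light pair this was so for BST2, IFI27, OASL and DDX60.

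BST2 encodes tetherin, which holds budding enveloped viruses on the cell surface. It had 1593 counts in heavy and 2058 in light wild type polysomes, and 34 and 52 in the heavy and light libraries labelled knockout. Both wild type libraries were far above both others, by 44.8-fold in heavy and 33.0-fold in light polysomes, or log2 genotype ratios (labelled knockout over wild type) of −5.49 (95% counting interval −6.02 to −5.00) and −5.05 (−5.47 to −4.65). The gene lies on chromosome 19 (17402939 to 17405630, minus strand, GRCh38). Its neighbour MVB12A, 0.092 kb away, had log2 ratios of −0.40 in heavy and 0.07 in light polysomes. On the other side the nearest protein-coding gene over the count minimum, GTPBP3 at 60.2 kb, had −0.67 and 0.19.

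IFI27, an interferon-induced protein of mitochondrial and other membranes, had 175 and 396 counts in heavy and light wild type polysomes and 8 and 19 in those labelled knockout. Its log2 ratios were −4.39 (−5.62 to −3.38) in heavy and −4.12 (−4.87 to −3.46) in light polysomes, a 20.9-fold and 17.4-fold lower level. IFI27 lies on chromosome 14 (94104836 to 94116695, plus strand) with a gap of 969.5 kb to DICER1 on the same chromosome. The genes beside it, IFI27L1 at 0.99 kb and IFI27L2 at 11.1 kb, had log2 ratios of −0.22 and −0.38 in heavy and −0.04 and −0.18 in light polysomes. The neighbours of BST2 and IFI27 were looked up after the values were seen.

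IFITM1, IFITM2 and IFITM3 are adjacent genes on chromosome 11 for related proteins that restrict the entry of enveloped viruses, and their libraries were ordered differently. IFITM1 (310041 to 315272, plus strand) had 502 and 735 counts in heavy and light wild type polysomes and 57 and 141 in the labelled knockout, 8.43-fold and 4.35-fold lower. IFITM2 had 2606 and 4698 in wild type, against 3041 and 7287 in the labelled knockout, with log2 ratios of 0.29 (0.21 to 0.36) and 0.89 (0.84 to 0.95). IFITM3 had 10968 and 18576 in wild type, against 8944 and 20552 in the labelled knockout, with log2 ratios of −0.23 (−0.27 to −0.19) and 0.41 (0.38 to 0.44). So the gene 0.644 kb from IFITM1 was higher in both fractions while IFITM1 was lower. Reads of these 3 genes can fall on each other's copies, and 21.1% of the annotated exon bases of IFITM1 are shared with another gene on its strand, so the sizes are uncertain.

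IFI6, a small protein of mitochondria and the endoplasmic reticulum, had 1210 and 2134 counts in heavy and light wild type polysomes and 478 and 1233 in the labelled knockout. It was lower in both fractions, but reached 2-fold only in heavy polysomes, with log2 ratios of −1.28 (−1.43 to −1.12) and −0.53 (−0.63 to −0.43). LINC02574 covers 23.1% of its exon bases on the same strand. With IFI6, 4 of the 6 membrane and organelle proteins had ratios below 1 in both fractions, where 31.9% of genes did.

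**Figure D3:**
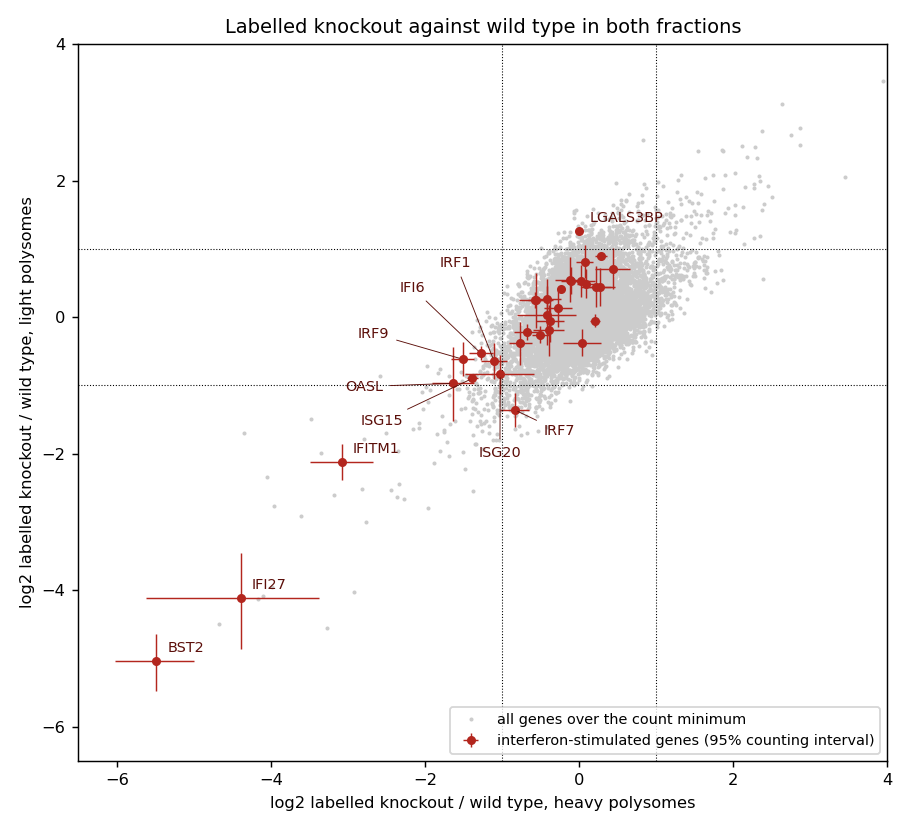
Log2 genotype ratio, labelled knockout over wild type, in heavy polysomes (horizontal) and light polysomes (vertical) for the 33 members over the count minimum (red, with 95% counting intervals) and the 10418 genes over it (grey); dotted lines mark 2-fold. BST2, IFI27 and IFITM1 lie in the lower left corner, outside 2-fold on both axes, and LGALS3BP lies over 0 on the horizontal axis and above 2-fold on the vertical.

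The signal transducers and transcription factors had ratios below 1 in both fractions in all 4 cases, where 31.9% of genes did, and none of the 4 reached 2-fold in both. IRF9, the DNA-binding part of ISGF3, had 1502 and 375 counts in heavy and light wild type polysomes and 504 and 204 in the labelled knockout, 2.85-fold and 1.53-fold lower. IRF1, a factor that activates many of the same promoters, had 976 and 344 counts against 434 and 184, 2.15-fold and 1.56-fold lower. IRF7, which drives interferon genes themselves, was the one of the 4 whose difference was larger in light polysomes: it had 667 and 529 counts against 357 and 172, a fold of 1.79 in heavy polysomes and of 2.57 in light ones. STAT2, which activates transcription as a part of ISGF3, had 596 and 189 counts against 439 and 152, with a log2 ratio of −0.38 (−0.56 to −0.20) in heavy polysomes and an interval that held 0 in light polysomes. An antisense or overlapping transcript covers 22.9% of the exon bases of IRF1 on the opposite strand and 23.9% of those of IRF9 on the same strand, and the strand setting of the counting is not given.

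ISG15, the ubiquitin-like modifier that gives the conjugation group its name, had 5686 and 6331 counts in heavy and light wild type polysomes and 2084 and 2833 in the labelled knockout. Both wild type libraries were above both others, by 2.61-fold in heavy and 1.86-fold in light polysomes. The enzymes that attach it differed less. UBE2L6, its conjugating enzyme, had log2 ratios of −0.68 and −0.22, and HERC5, its main ligase, had −0.76 and −0.38; all 4 intervals lay below 0. HERC6 was below 1 only in heavy polysomes, at −0.56 against 0.25 in light, and USP18, the protease that removes ISG15, had between 43 and 86 counts and was under the minimum.

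Among the effectors that bind or modify RNA, OASL and ISG20 were at least 2-fold lower in heavy polysomes of the labelled knockout. OASL, a catalytically inactive relative of the 2-5A synthases, had 470 and 101 counts in wild type, against 145 and 43 in the labelled knockout, 3.10-fold and 1.96-fold lower. ISG20, a nuclease for single-stranded RNA, had 136 and 323 against 64 and 151, 2.03-fold and 1.78-fold lower. OAS1 was as far apart on few reads: 150 and 31 counts in wild type against 35 and 5 in the labelled knockout, under the minimum in the light pair. OAS3 stood on the other side, with 1311 and 243 counts against 1320 and 355, or log2 ratios of 0.07 (−0.04 to 0.18) and 0.81 (0.57 to 1.05). EIF2AK2, the kinase PKR that halts translation on double-stranded RNA, had log2 ratios of −0.50 and −0.26, while ADAR, which edits adenosines in such RNA, had 0.21 and −0.05.

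The remaining members over the minimum differed by less than 2-fold in both fractions, LGALS3BP excepted. PARP9, its partner DTX3L and PARP14, neighbours on chromosome 3 that attach ADP-ribose or ubiquitin, were above 1 in both fractions with all intervals above 0, at 0.22, 0.27 and 0.43 in heavy and 0.45, 0.44 and 0.71 in light polysomes. The cytoplasmic RNA sensors IFIH1, DDX58 (RIG-I) and DDX60 had −0.12, −0.42 and −0.42 in heavy and 0.55, 0.27 and 0.03 in light polysomes, so none was below 1 in both; another gene shares 43.2% of the exon bases of DDX58. LGALS3BP, a secreted glycoprotein that binds galectins, had 20464 and 3746 counts in heavy and light wild type polysomes and 19594 and 7458 in the labelled knockout. Its heavy libraries were level, at a log2 ratio of 0.00 (−0.03 to 0.03), and its light library labelled knockout was 2.39-fold above the wild type one, the only one of the 33 at least 2-fold higher in a fraction. In light polysomes 4.05% of genes were as much higher, and in heavy polysomes 3.18% of genes and none of the 33.

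Over the 33 members, 15 had ratios below 1 in both fractions, where 31.9% of genes did, and 13 of these had both counting intervals below 1, where 19.4% of genes did. On the other side 8 had ratios above 1 in both, where 30.8% of genes did, and 4 had both intervals above 1, where 19.6% did. With DESeq2 size factors in place of TMM 6 were above 1 in both, without SAMD9 and LGALS3BP, and with library totals alone 16 were below 1 in both, with DDX60 added. In heavy polysomes alone 9 members were at least 2-fold lower (2.39% of genes), and in light polysomes 4 (2.52% of genes). The median log2 ratio of the members was −0.42 in heavy polysomes, against −0.03 over all genes, and −0.05 in light polysomes, against 0.03 over all genes. These are descriptions of 1 library pair each, for a list chosen with earlier results of these data known. No replicate gives their spread.

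Of the 12 members under the minimum, CMPK2, a mitochondrial nucleotide kinase, had 26 and 49 counts in heavy and light wild type polysomes and 68 and 89 in the labelled knockout, so it ran opposite to BST2, with log2 ratios of 1.45 (0.78 to 2.16) and 1.12 (0.60 to 1.66). IFI44, a cytoplasmic protein of unsettled function, had 57 and 32 counts against 21 and 7. MX1, a GTPase that traps viral ribonucleoproteins, had between 16 and 37 counts in the 4 libraries. IFIT2 had 144 and 84 counts against 75 and 32, and IFIT3 had 108 and 33 against 57 and 23. TRIM22 had at most 20 counts.

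The second comparison asked where on the gradient the mRNAs of the members sat, with the 2 genotypes as a pair of gradients. It used edgeR's quasi-likelihood test on the whole table with the gradient as a block, and a gene was called at a Benjamini-Hochberg adjusted p under 0.05 over all 13574 genes tested. The fit had 1 residual degree of freedom, from the disagreement between 2 gradients that also differ in genotype. The spread of each gene was moderated with that of all genes. The SE and adjusted p of a member thus rest in part on other genes and not on its own 2 gradients alone. Of the 45 members 41 were tested, and 26 of them were called toward heavy polysomes (30.0% of genes were), 7 toward light polysomes (29.3% of genes) and 8 in neither direction. At 2-fold or more the counts were 22 toward heavy (20.1% of genes) and 2 toward light (17.5% of genes). The median fitted log2 heavy to light ratio was 1.11 over the members and −0.07 over all genes.

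The most heavy-bound members over the count minimum were OAS3, fitted at 2.28 ± 0.27 (log2, SE; edgeR adjusted p = 1.57e-14), and HERC5, fitted at 2.27 ± 0.27 (edgeR adjusted p = 9.22e-15). OAS3 had 1311 counts in heavy against 243 in light wild type polysomes and 1320 against 355 in the labelled knockout, and HERC5 had 1019 against 217 and 575 against 139. OASL followed at 2.15 and LGALS3BP at 2.04, and OAS1, on few reads, was fitted at 2.57. In each of these, both heavy libraries were above both light ones. All 4 signal transducers and transcription factors were called heavy, where 30.0% of genes were. IRF9 was fitted at 1.79 (edgeR adjusted p = 6.94e-10), STAT2 at 1.72, IRF1 at 1.50 and IRF7 at 0.80. The call of IRF7 was lost with library totals alone and without the gradient as a block.

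Other members over the count minimum that were called heavy by 2-fold or more had the same order of libraries. TRIM21, an antibody receptor and ubiquitin ligase of the cytosol, had 1196 heavy against 328 light counts in wild type and 1218 against 384 in the labelled knockout. SAMHD1, which degrades deoxynucleotides, had 496 against 145 and 361 against 106, and HERC6 had 447 against 107 and 290 against 106. The sensor IFIH1 (MDA5) had 457 against 140 and 402 against 171, and DDX58 had 553 against 203 and 395 against 204. The heavy libraries of all 5 thus exceeded the light ones of the same gradient.

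The same held for IFIT5, an RNA-binding protein of the IFIT family, with 1191 heavy against 405 light counts in wild type and 1055 against 489 in the labelled knockout. IFIT1, which binds mRNA caps that lack methylation, had 577 against 240 and 457 against 219. ADAR had 3916 against 1983 and 4333 against 1593. PARP9 had 419 against 182 and 466 against 207, and DTX3L had 390 against 198 and 449 against 224. Their fitted log2 ratios ran from 1.11 for DTX3L to 1.45 for IFIT5.

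The members called light were small proteins. IFI27, with 175 heavy against 396 light counts in wild type, was fitted at −1.01 (edgeR adjusted p = 0.00527), and ISG20, with 136 against 323 in wild type and 64 against 151 in the labelled knockout, at −1.11 (edgeR adjusted p = 0.000248). IFI6 at −0.97, IFITM2 at −0.94, UBE2L6 at −0.87, IFITM3 at −0.86 and IFITM1 at −0.73 were called without reaching 2-fold. BST2, at −0.30 (edgeR adjusted p = 0.377), and ISG15, at −0.18 (edgeR adjusted p = 0.615), were not called. Of the 6 membrane and organelle proteins 5 were called light (29.3% of genes were) and none heavy (30.0% of genes). All 5 have up to 500 coding nucleotides, a class in which 85.5% of genes were called light. Without the gradient as a block only IFITM2 kept its light call and 20 members kept their heavy call.

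Coding length bounds how many ribosomes an mRNA can carry, so the members were set beside genes of like coding length (GENCODE release 44 canonical transcripts). Across genes the ratio rose with coding length, with Spearman's rho of 0.548 over 12542 protein-coding genes and 0.556 over the 41 members, which share the same 4 libraries; genes are not independent replicates. Of the 7 members with up to 500 coding nucleotides 6 were called light, as were 85.5% of genes of that class. Of the 11 members with 1000 to 1500 coding nucleotides 9 were called heavy, where 29.8% of genes of that class were, and their median fitted log2 ratio was 1.29 against 0.01. Of the 9, IFIT2, IFIT3, OAS1, TRIM22 and IFI44 were under the count minimum of the genotype comparison. TRIM22 and IFI44 lost the call with DESeq2's Wald test and with library totals alone. Of the 6 members with 3000 to 5000 coding nucleotides all 6 were called heavy, where 57.8% of genes were. All 7 of the shortest members still lay above the median of their class, by 0.21 (IFI27) to 1.05 (ISG15), with a median of −0.87 against −1.23 for genes of that class. Of the 41 members 34 were above the median of their own class, and the difference had a median of 0.74 over all 41.

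**Figure D4:**
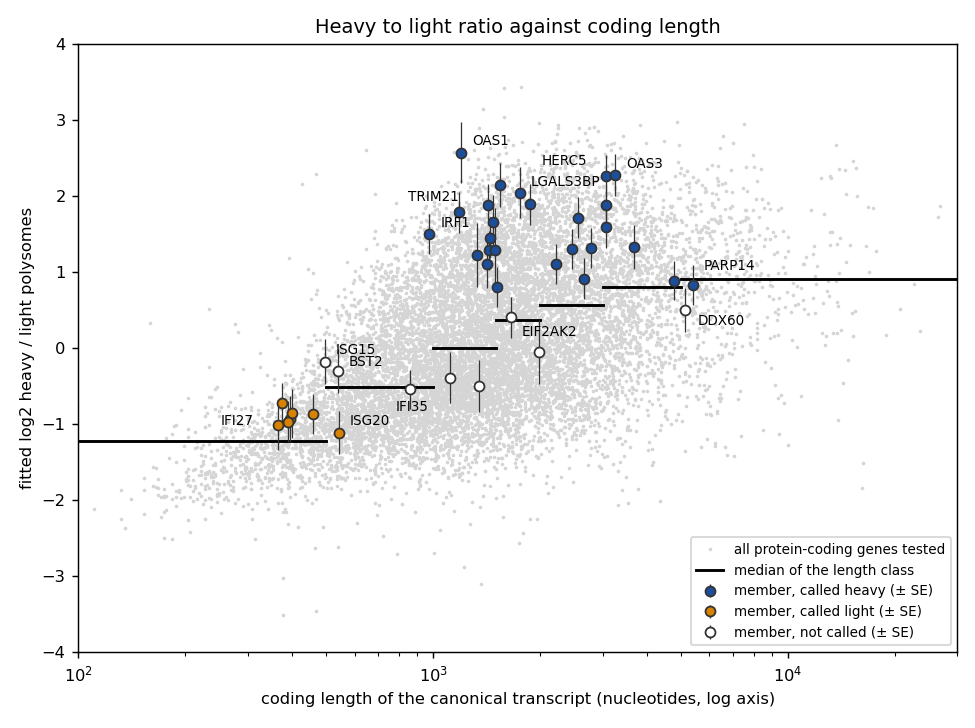
Fitted log2 heavy to light ratio (± SE) of the 41 members tested, against the coding length of the canonical transcript on a log axis, with all protein-coding genes tested in grey and black bars for the median of each length class. The 7 members with up to 500 coding nucleotides lie below 0 and above the median of their class, and most members with 1000 to 5000 lie above theirs.

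The third comparison was the shift, that is, the log2 heavy to light ratio in the gradient labelled knockout less the ratio in wild type, over the 30 members with 50 or more counts in each library. It has no test, since no library repeats it. By its definition it equals the log2 genotype ratio in heavy polysomes less that in light ones. The shift thus restates the same counts as the first comparison and is not separate evidence. Of the 30, 20 had a counting interval below 0, toward light polysomes, where 37.2% of 10834 genes did. Only 3, IRF7, ADAR and IFI35, had an interval above 0, where 28.7% of genes did. The median shift was −0.46 over the members and −0.05 over all genes, and 27 of the 30 were below 0.

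LGALS3BP had the largest shift of the 30, −1.25 (−1.32 to −1.19), and was the only one of at least 2-fold with its interval, where 2.44% of genes shifted as far toward light polysomes. Its log2 heavy to light ratio was 2.67 in wild type and 1.42 in the labelled knockout, the difference lying in its light libraries. IFITM1 shifted by −0.95, IRF9 by −0.89, SP100 by −0.82, HERC6 by −0.81, IFI6 by −0.75 and OAS3 by −0.73. IRF7 shifted by 0.52 (0.21 to 0.83), IFI35 by 0.41 and ADAR by 0.26. So heavy-bound and light-bound members alike were among those with a shift toward light polysomes.

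The gradients differed over all genes as well: the log2 heavy to light ratio had an SD over genes of 1.18 in wild type and 0.909 in the labelled knockout. Genes that sat in heavy polysomes in both therefore had shifts below 0 in general, with a median of −0.72 among genes with a mean ratio above 2. Set against genes of a like mean ratio, an alternative added after the data were seen, the members' median shift was −0.23, with 20 members below and 10 above. In the class with mean ratios from −1 to −0.5 the 6 members had a median shift of −0.62, where genes had 0.27. These were UBE2L6, IFI6, IFI35 and the adjacent IFITM1, IFITM2 and IFITM3, whose reads can fall on each other's copies. IFI35 shifted the other way, by 0.41. In the classes on the heavy side the members lay close to the genes, with −0.40 against −0.42 for mean ratios from 1 to 1.5 (7 members), −0.54 against −0.58 from 1.5 to 2 (6 members) and −0.73 against −0.72 above 2 (3 members). How far the narrower spread of the second gradient enters each member's shift was not tested further.

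**Figure D5:**
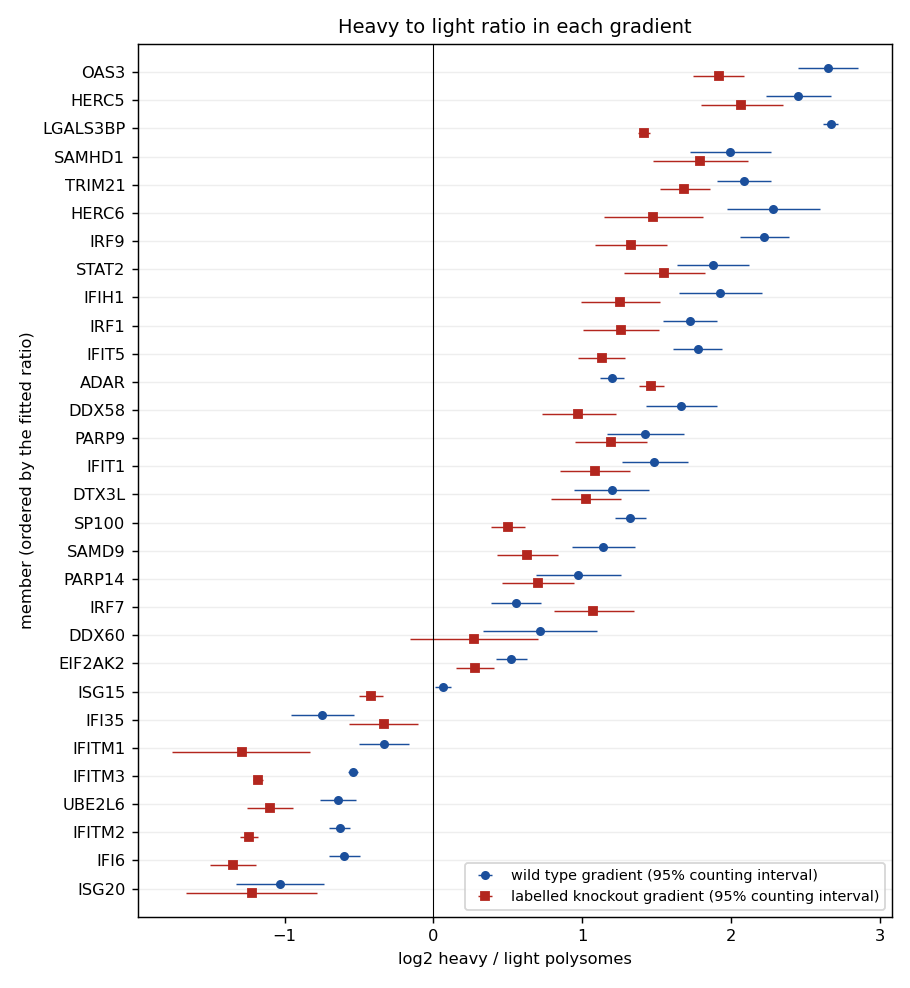
Log2 heavy to light ratio of the 30 members with 50 or more counts in each library, in the wild type gradient (circles) and in the gradient labelled knockout (squares), with 95% counting intervals and members ordered by the fitted ratio. The square lies to the left of the circle for 27 of 30 members, by the most for LGALS3BP; it lies to the right for IRF7, ADAR and IFI35.

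The rest of the pathway was read from 72 further genes in 6 lists. None of 10 interferon ligands had more than 7 counts in a library. All 6 interferon receptor genes passed the count minimum, and no receptor differed 2-fold between genotypes in either fraction. Of all genes over that minimum, 1.21% were at least 2-fold lower in both fractions and 1.20% at least 2-fold higher. On the gradient 4 receptors were called light (29.3% of genes were) and 1 heavy (30.0% of genes). IFNAR1, the type I receptor subunit that binds TYK2, had 455 and 1680 counts in heavy and light wild type polysomes and 551 and 1159 in the labelled knockout, with a fitted heavy to light ratio of −1.36 (edgeR adjusted p = 2.62e-06). IFNAR2 had 255 and 757 against 243 and 472, and IFNGR2, of the interferon gamma receptor, had 445 and 1527 against 512 and 1061. Its partner IFNGR1 lay on the heavy side, with 2432 and 756 against 1467 and 938.

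JAK1, the kinase on these receptors, had 2788 and 1026 counts in heavy and light wild type polysomes and 2178 and 852 in the labelled knockout, at log2 genotype ratios of −0.29 and −0.01. STAT3, which signals for many cytokines, had 2414 and 513 against 1996 and 600. Both JAK1 and STAT3 thus stayed under 2-fold between genotypes. On the gradient both were called heavy by over 2-fold, with JAK1 at a fitted 1.52 (edgeR adjusted p = 3.43e-07) and STAT3 at 2.10 (edgeR adjusted p = 3.39e-12).

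Of the 72, 42 passed the count minimum. Of these 42, 1 was at least 2-fold lower in both fractions (1.21% of genes were) and none was as much higher (1.20% of genes). The lower one was SLFN5, an interferon-induced member of the Schlafen family, with 1012 and 335 counts in heavy and light wild type polysomes and 359 and 126 in the labelled knockout (log2 ratios −1.43 and −1.15). PLSCR1, a membrane protein that binds phospholipids, was 2-fold lower in heavy polysomes only, at 2802 and 1359 counts against 1199 and 851. Under the minimum, IFI16, a sensor of DNA, had 100 and 39 counts against 18 and 11, and APOL6, an apolipoprotein L, had 35 and 30 against 6 and 10. APOBEC3G, a cytidine deaminase with near-identical relatives, ran the other way, with 6 and 1 counts in wild type against 66 and 29 in the labelled knockout. The median log2 ratios over the 42 were −0.15 in heavy and 0.03 in light polysomes. On the gradient, 55 of the 72 were tested, 27 were called heavy (30.0% of genes were), 11 light (29.3% of genes) and 17 neither.

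Further listed genes called heavy by 2-fold or more were TRIM25, PIAS1, LAP3, PML, SP110, ZC3HAV1, TRIM5, TDRD7, PARP12, NUB1 and APOBEC3B. APOBEC3B, a cytidine deaminase whose near-identical relatives make its counts uncertain, had the largest fitted ratio among them, 2.58, with 759 heavy against 115 light counts in wild type and 765 against 164 in the labelled knockout. PIAS1, a SUMO ligase that restrains cytokine signalling, had 1126 against 240 and 854 against 391, and PML, the organiser of the nuclear bodies that hold SP100, had 1766 against 473 and 969 against 343. TRIM25, the ligase that activates RIG-I, had 2819 against 869 and 2141 against 551. The fitted ratios of the other 7 ran from 1.20 for TRIM5 to 1.90 for LAP3.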

How the data were processed

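Polysome RNA of HCT116 cells was measured in 4 libraries, 1 per group. The values deposited are whole-number read counts, 1 row per gene symbol, which the authors left unnormalised as far as the differing totals show. Per the submitters' processing notes, CASAVA, STAR, HTSeq and hg19 were used; no version, annotation or strand setting is given in the sources used here. Replicate cultures are not given, and the labels carry no replicate numbers.

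The members and lists were chosen with earlier results of these data known. Counts were scaled by TMM (edgeR 4.0.16). Heavy and light libraries were compared with edgeR's quasi-likelihood test after filterByExpr, with the gradient as a block, on all genes, with Benjamini-Hochberg adjustment; the script was tested on simulated data. Genotype ratios have exact conditional (Clopper-Pearson) 95% intervals and no prior count; shifts have Wald intervals from the counts. Intervals and floors cover counting error only. Without molecular identifiers, reads cannot be counted as independent molecules, so the intervals may be too narrow even for that error. Named members had 100 or more counts in the higher library of both pairs and either a 2-fold genotype ratio in a fraction or a heavy or light call of 2-fold; the listed genes followed the same rule, with JAK1 and IFNAR1 named whatever their values. The values of 1 listed gene are not reported here. Others are named where their role needs it.

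Lengths and positions came from GENCODE release 44 (GRCh38), while the counts were made on hg19; all 45 symbols matched, 1 of them (DDX58) through an older symbol. Promoter windows came from RefSeq (GRCh38.p14). Alternatives were DESeq2 1.42.0, DESeq2 size factors, library totals, no filter on low counts, no block, each gradient alone, other count minimums and a prior count of 2. No column was left without a sample.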

Additional observations from a re-analysis of the deposited data

Results flagged for a closer look

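Values on opposite sides of 1 in the 2 gradients or the 2 fractions drew attention to 3 members; with 1 library per group no such difference was tested. ISG15 had a log2 heavy to light ratio of 0.06 in the wild type gradient and −0.42 in the gradient labelled knockout, a difference of −0.4857. Scaled by library totals alone, both ratios were below 0, at −0.24 and −0.58, so the opposite sides depend on the scaling. IFITM3 had a log2 genotype ratio of −0.23 in heavy polysomes and 0.41 in light ones, a difference of −0.6379, and SP100, a nuclear body protein, had −0.57 and 0.25, a difference of −0.8224. IFITM3 and SP100 kept these sides with DESeq2 size factors and with library totals.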

How the results depend on the processing

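Without the replicate block (the gradient), 1 member was called light and 20 heavy, in place of 7 and 26. Scaling by library totals alone moved the median of all genes from −0.07 to −0.30 and the heavy share of all calls from 50.6% to 38.9%; the members' median fitted ratio then was 0.88, with 22 heavy and 8 light calls, and OASL joined the members lower in both fractions, making 4. DESeq2's Wald test called 24 heavy and 5 light, losing TRIM22, IFI44, IFITM1 and IFI27. With a minimum of 50 counts, 1 member (CMPK2) was at least 2-fold higher in both fractions, and with a minimum of 1 count in any library 2 were (CMPK2 and OAS2) and 6 were lower, adding OAS1, IFI44 and IFI44L on few reads. No called member changed direction under these alternatives; ratios near 1 of DDX60, SAMD9 and LGALS3BP, and the wild type heavy to light ratio of ISG15, changed side with the scaling. The median log2 genotype ratio stayed between −0.447 and −0.325 in heavy and between −0.138 and −0.006 in light polysomes, and the median shift between −0.539 and −0.319. Taken less the median shift of genes of a like mean ratio, which is another quantity, the members' median was −0.226. No library could be left out within a genotype comparison, since each group had 1.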
